A study of Arabidopsis thaliana with 16 samples.

Results

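Of the transporter genes chosen by symbol, 17 had an annotated probe set of their own on Arabidopsis thaliana root arrays, out of 22746 probe sets. They were 6 cation/H+ exchanger genes (CHX), 7 glutamate receptor-like channel genes (GLR), the metal transporter genes ZIP6, ZIP9 and NRAMP5, and the nitrate transporter gene NRT2.5. The choice rested on the annotated symbol alone, through a list of 30 symbol prefixes of water, nutrient and ion transporters. Only 5 of these prefixes had a member. The annotation used did not list 8730 of the 22746 probe sets, so genes without a member may still be on the arrays. The aquaporins, which the list also named, had 0 members, and so had the ammonium, phosphate, sulfate, potassium, sugar and amino acid transporter prefixes, so none of these families was analysed here. In RefSeq, 301 Arabidopsis gene symbols have a form that fits the list, so the 17 are a small sample of it. The families are covered in part as well, with 6 of 22 RefSeq CHX symbols, 7 of 18 GLR, 2 of 13 ZIP, 1 of 6 NRAMP and 1 of 14 NRT symbols.

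Seedlings of the Columbia ecotype grew for 5 days on standard medium, were moved to iron-deficient (-Fe) or standard medium, and their roots were then cut across into 4 zones. The labels name no mutation or transgene in any group, and about 15 roots were pooled for each array. The -Fe medium held 0.3 mM Ferrozine, a chelator of ferrous iron, in place of the iron source, while standard medium held Fe(III)-EDTA. Zone 1 was the lowest 150 µm, zone 2 the next 200 µm up to the approximate end of the meristem, zone 3 the next 200 to 300 µm to below the first root hairs, and zone 4 the next 1000 µm. Each zone on each medium was measured on 2 arrays, which makes 8 groups and 16 arrays. The sample descriptions give 24 h after transfer for -Fe roots and 1 h for standard roots, whereas the protocol gives 24 h for both, so the medium and the time after transfer may differ together. Whether the 2 pools of a group were grown separately is not in the labels, and the p-values therefore reflect only how far such pools differ, which may be technical.

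Plant roots take up and move mineral ions through membrane proteins that differ in ion and in membrane. ZIP proteins carry zinc, iron and related divalent metals into the cytosol, and the main iron uptake transporter of the Arabidopsis root, IRT1, belongs to this family. NRAMP proteins are proton-coupled carriers of manganese, iron and other divalent metals, and NRT2 proteins take up nitrate with high affinity. CHX proteins exchange potassium or sodium ions for protons, mostly at inner membranes, and many CHX genes are known for expression in pollen. GLR proteins are plant relatives of animal glutamate receptors that form amino acid-gated channels for calcium and other cations.

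Values are MAS5 signal intensities in array units. The median over all probe sets ranged from 51.2 to 76.0 units between arrays, whose trimmed means were all 249.9 units. Differences are given as log2(intensity + 7.73), a scale that understates the change of dim probe sets. A probe set entered the tests if it lay above the 40th percentile of its array, which was 25.3 to 43.4 units, on at least 2 arrays. The replicates of zone 3 on standard medium differed most over all probe sets kept, with an SD of 0.83 for their log2 difference, against 0.50 to 0.66 in the other 7 groups. Of 39 cell type markers listed, 4 had an annotated probe set of their own. AUR1, a mitotic kinase gene, was highest in zone 1 on both media (981 and 1164 units on -Fe medium, 896 and 993 on standard medium). The root hair expansin genes EXPA7 and EXPA18 and the root hair gene SCN1 had their highest means in zone 3 on both media, and EXPA7 read 4131 and 5191 units there on -Fe medium against 3218 and 3194 on standard medium. Markers of root cap, endodermis, xylem, phloem, stele and green tissue were not analysed here. These are pieces of whole root, so fewer cells of a type and less RNA per cell cannot be told apart.

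Of the 17 genes, 10 passed the filter. They were CHX16, CHX19, CHX20, GLR3.3, GLR3.5, GLR3.6, NRAMP5, ZIP6, ZIP9 and NRT2.5. Only GLR3.3 and GLR3.5 lay above the 40th percentile on all 16 arrays, GLR3.6 did so on 15, ZIP9 on 12, ZIP6 on 8, CHX16 on 6, CHX19 on 4, and CHX20, NRAMP5 and NRT2.5 on 2 each. The filter favours a difference between zones in a gene that passed only through the zone where it is high, so counts over these 10 say nothing about the other 7.

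Along the root, 7 of the 10 genes tested differed between the 4 zones on -Fe medium and 5 of 10 on standard medium (limma F test, adjusted p under 0.05). Over all 16505 probe sets tested the share was 77.4% on -Fe medium and 73.7% on standard medium, so the members' shares do not stand above the background. The 7 genes that passed on at least 1 medium had 4 patterns. ZIP9, ZIP6 and CHX16 had their highest means in zone 4 on both media, GLR3.3 was higher in zones 1 and 2 than above them, and GLR3.5 had its highest mean in zone 3. GLR3.6 and CHX20 had their highest mean in zone 1 on both media and passed the test on -Fe medium only. The standard medium result of both genes depended on a single array, zone 3 replicate 1 for GLR3.6 and zone 1 replicate 1 for CHX20. Whether their zone pattern differed between media was tested directly and did not pass for either gene (limma F test of the interaction, adjusted p = 1).

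ZIP9, a member of the zinc and iron permease family known to rise under zinc deficiency, increased along the root on both media. On -Fe medium it read 36.3 and 32.7 units in zone 1, 18.4 and 35.1 in zone 2, 145 and 220 in zone 3, with 437 and 404 in zone 4. On standard medium the values were 25.7 and 16.8 units in zone 1, 33.9 and 23.4 in zone 2, 190 and 70.9 in zone 3, with 197 and 567 in zone 4. All arrays of zones 3 and 4 lay above all arrays of zones 1 and 2 on each medium, and both zone 4 arrays lay above both zone 3 arrays. From zone 2 to zone 3 ZIP9 rose by 2.48 ± 0.50 on -Fe medium (log2, SE, limma adjusted p = 0.0013) and by 1.79 ± 0.50 on standard medium (adjusted p = 0.00984). The standard medium value was 1.13 (adjusted p = 0.11) without zone 3 standard replicate 1 and 1.58 (adjusted p = 0.0739) without zone 2 standard replicate 2.

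ZIP6, another gene of the same family, was low in zone 2 and high in zone 4. Its signal on -Fe medium was 32.4 and 27.1 units in zone 1, 13.1 and 10.1 in zone 2, 88.2 and 62.9 in zone 3, with 249 and 186 in zone 4. On standard medium it was 23.8 and 28.2 units, 16.2 and 17.8, 87.9 and 15.8, and 301 and 164 in zones 1 to 4. The 2 zone 3 arrays on standard medium fell apart, one near the -Fe zone 3 arrays and one at the level of zone 2. ZIP6 lay above the 40th percentile on 8 arrays. Below zone 3 the only such array was zone 1 -Fe replicate 1, at 32.4 units against a line of 32.1. The filter therefore favoured a rise toward zones 3 and 4, and the zone and step tests of ZIP6 carry no weight of their own. On -Fe medium the step that passed was zone 2 to zone 3, with a rise of 2.09 ± 0.51 (log2, SE, adjusted p = 0.00442). On standard medium it was zone 3 to zone 4, with a rise of 2.28 ± 0.51 (adjusted p = 0.0197), and the step before it was 0.94 ± 0.51 (adjusted p = 0.144). Without zone 3 standard replicate 2, the zone 2 to zone 3 step on standard medium passed, at 1.95 (adjusted p = 0.00179), and the zone 3 to zone 4 value was 1.27 (adjusted p = 0.147). The zone 3 to zone 4 call was also lost without zone 4 standard replicate 1 (1.86, adjusted p = 0.149) and on the arrays compared alone (adjusted p = 0.22). The interaction test did not pass for ZIP6 (adjusted p = 1).

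CHX16, a cation/H+ exchanger gene, was near or below the offset in zones 1 and 2 and well above it in zone 4. On -Fe medium it read 2.46 and 1.59 units in zone 1, 3.57 and 1.96 in zone 2, 27.9 and 53.4 in zone 3, with 142 and 151 in zone 4. On standard medium it read 5.02 and 7.2 units in zone 1, 6.7 and 14.1 in zone 2, 164 and 15.3 in zone 3, with 198 and 232 in zone 4. Every array of zones 3 and 4 lay above every array of zones 1 and 2, on each medium. The rise from zone 2 to zone 3 was 2.16 ± 0.67 on -Fe medium (log2, SE, limma adjusted p = 0.0164) and 1.82 ± 0.67 on standard medium (adjusted p = 0.0371). CHX16 lay above the 40th percentile on 6 arrays, all of them in zones 3 and 4. The filter therefore favoured this rise, and the zone and step tests of CHX16 carry no weight of their own. With no offset the -Fe rise was 3.87, because 7 of the 16 arrays lay below the offset, so its size depends on that choice. The -Fe call was lost without either zone 2 array (adjusted p = 0.0529 and 0.0769) and without zone 3 replicate 2 on that medium (adjusted p = 0.117). The standard medium value was 0.38 (adjusted p = 0.496) without zone 3 standard replicate 1 and 3.27 without replicate 2. That call was also lost without zone 2 standard replicate 1 (adjusted p = 0.158) or replicate 2 (adjusted p = 0.0728), with quantile normalization (adjusted p = 0.0506) and on the arrays compared alone (adjusted p = 0.161).

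**Figure D1:**
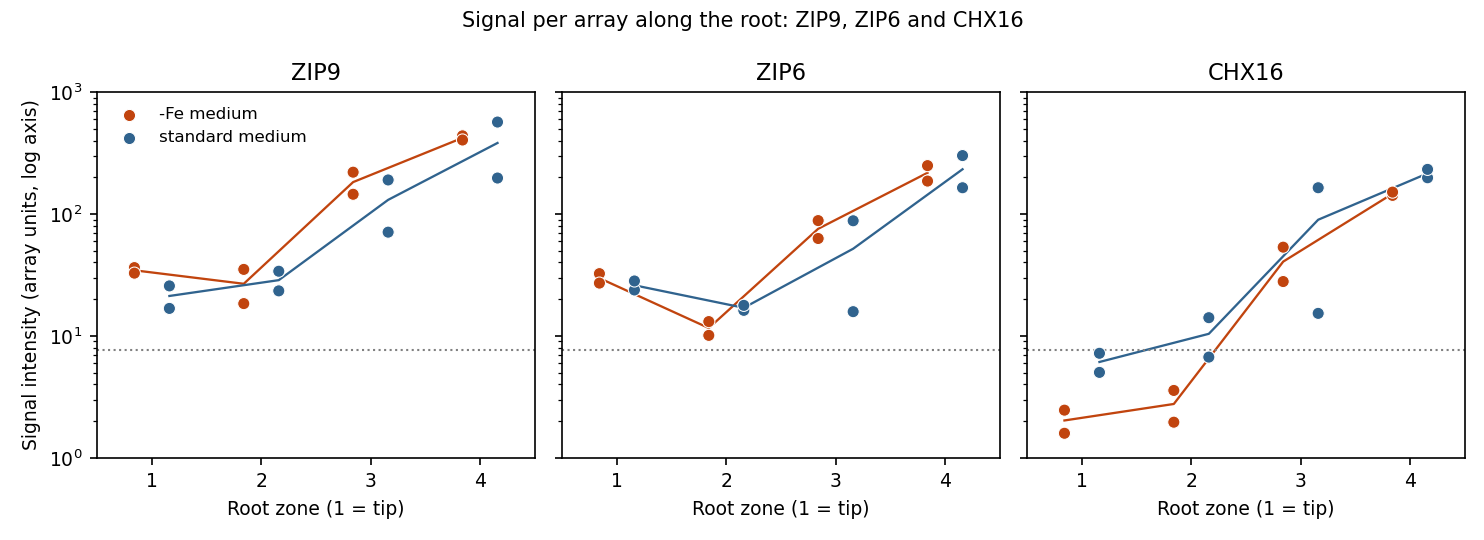
Signal intensity (array units, log axis) of ZIP9, ZIP6 and CHX16 in the 4 root zones. Points are single arrays (2 per group), lines join the group means, -Fe medium is left of standard medium in each zone, and the dotted line is the offset of 7.73 units. All 3 genes are highest in zone 4, and the 2 zone 3 arrays on standard medium lie far apart for ZIP6 (87.9 and 15.8 units) and CHX16 (164 and 15.3 units).

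Over the 10 genes tested, the median size of the replicate difference was largest in zone 3 on standard medium (0.688, log2). That group also had the widest spread over all probe sets kept. Replicate 1 exceeded replicate 2 by 2.90 (log2) for CHX16, 2.02 for ZIP6, 1.33 for ZIP9 and 1.02 for GLR3.6, and was lower by 0.96 for GLR3.5 (a difference of -0.96). In that group 4 of the 10 genes differed by more than 1, against 0 to 2 in each of the other groups. Over all probe sets kept the SD of this difference was 0.83 there, against 0.50 to 0.66 elsewhere. The share of all probe sets that differed by more than 1 was not counted, so the count does not set the members apart. In that group EXPA7 differed by 0.01, EXPA18 by 0.06, SCN1 by -0.47 and AUR1 by 0.36, replicate 1 minus replicate 2. In zone 2 on standard medium, where the steps to zone 3 on that medium start, the root hair expansin genes separated the replicates: EXPA7 read 397 and 31.1 units, a difference of 3.38, and EXPA18 read 248 and 30.7 units, a difference of 2.73. SCN1 differed there by 0.05 and AUR1 by -0.68. The part of these marker differences in the members' steps was not tested.

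**Figure D2:**
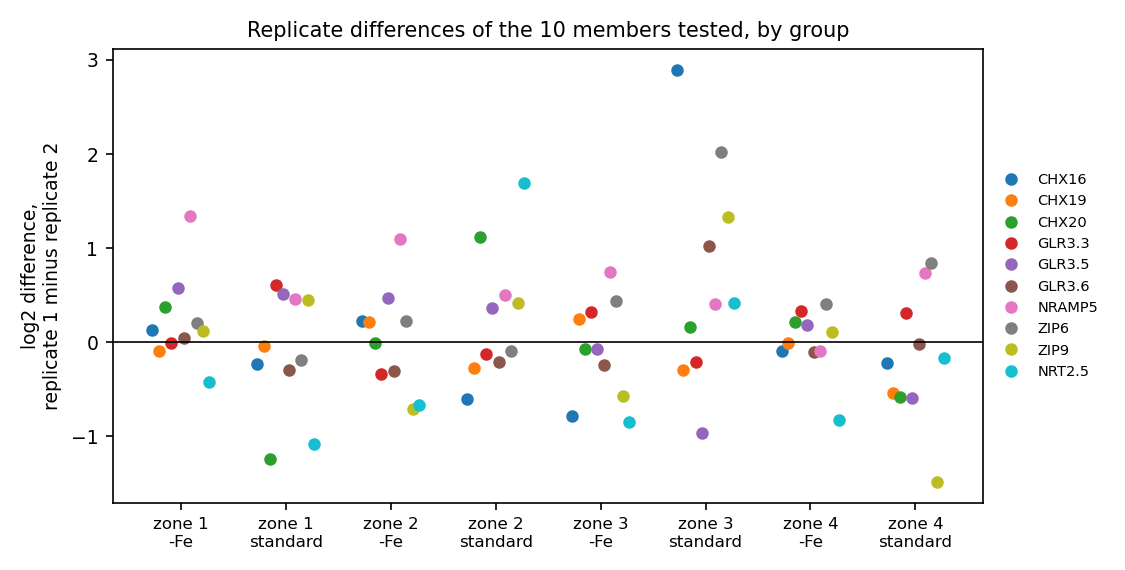
Difference between the 2 arrays of each group (log2, replicate 1 minus replicate 2) for the 10 genes tested. Each point is 1 gene, and -Fe medium is left of standard medium for each zone. The widest spread is in zone 3 on standard medium, where CHX16 reaches 2.90 and ZIP6 2.02.

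The 3 glutamate receptor-like genes that passed the filter, all of the GLR3 group, did not share a pattern. GLR3.3, a calcium-permeable channel that takes part in wound signalling and in the bending of roots to gravity, was higher in the 2 lower zones. On -Fe medium it read 189 and 190 units in zone 1, 203 and 258 in zone 2, 143 and 113 in zone 3, with 133 and 104 in zone 4. On standard medium the signal was 238 and 153 units in zone 1, 184 and 201 in zone 2, 98.8 and 115 in zone 3, with 129 and 103 in zone 4. Zones 3 and 4 lay below zones 1 and 2 with no overlap on each medium. From zone 2 to zone 3 GLR3.3 fell by 0.81 (log2, SE 0.26, adjusted p = 0.0211) on -Fe medium and by 0.80 (SE 0.26, adjusted p = 0.0227) on standard medium. Each of these calls was lost without some single arrays, with adjusted p up to 0.144 on -Fe medium (without zone 2 replicate 2 or zone 3 replicate 2) and up to 0.11 on standard medium (without either zone 2 array or zone 3 replicate 1). The zone test of GLR3.3 (limma F test) passed on -Fe medium (adjusted p = 0.017) and on standard medium (adjusted p = 0.0192). On -Fe medium it was lost without zone 2 replicate 2 or zone 4 replicate 2. On standard medium it was lost on the arrays compared alone (adjusted p = 0.0706). The fall from zone 2 to zone 3 on standard medium was lost there too (limma adjusted p = 0.103), and with array weights (adjusted p = 0.0877).

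GLR3.6, which acts with GLR3.3 in the electrical signal after wounding, had its highest mean in zone 1 on each medium. The -Fe arrays read 109 and 105 units in zone 1, 48.7 and 62.1 in zone 2, 28.3 and 34.9 in zone 3, with 44.6 and 48.4 in zone 4. The standard arrays read 75.1 and 93.9 units in zone 1, 53.7 and 63.1 in zone 2, 70.7 and 30.8 in zone 3, with 45.9 and 46.7 in zone 4. Zone 1 stood above all other zones on each medium. The test over the 4 zones passed on -Fe medium (adjusted p = 0.00471) and not on standard medium (adjusted p = 0.136), where zone 3 overlapped zone 2. No single step passed, and the nearest was zone 1 to zone 2 on -Fe medium (-0.87 ± 0.32, adjusted p = 0.0563).

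GLR3.5, a GLR channel gene, had its highest mean in zone 3, below the first root hairs. It read 85.1 and 54.4 units in zone 1, 153 and 109 in zone 2, 231 and 243 in zone 3, with 131 and 114 in zone 4 on -Fe medium. On standard medium it read 76.3 and 51 units, 151 and 116, 187 and 373, and 94.4 and 146 in zones 1 to 4. Zone 3 was above every other zone on each medium, and zones 2 and 4 overlapped. The zone test passed on -Fe medium (adjusted p = 0.00652) and on standard medium (adjusted p = 0.00238). Of the single steps, the rise from zone 2 to zone 3 on standard medium passed (0.96 ± 0.36, adjusted p = 0.0398). This call was lost when any 1 of 7 arrays was left out, and the value was 0.48 (adjusted p = 0.313) without zone 3 standard replicate 2. The difference from zone 3 to zone 4 was -0.91 ± 0.36 on -Fe medium (adjusted p = 0.106) and -1.12 ± 0.36 on standard medium (adjusted p = 0.0696).

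**Figure D3:**
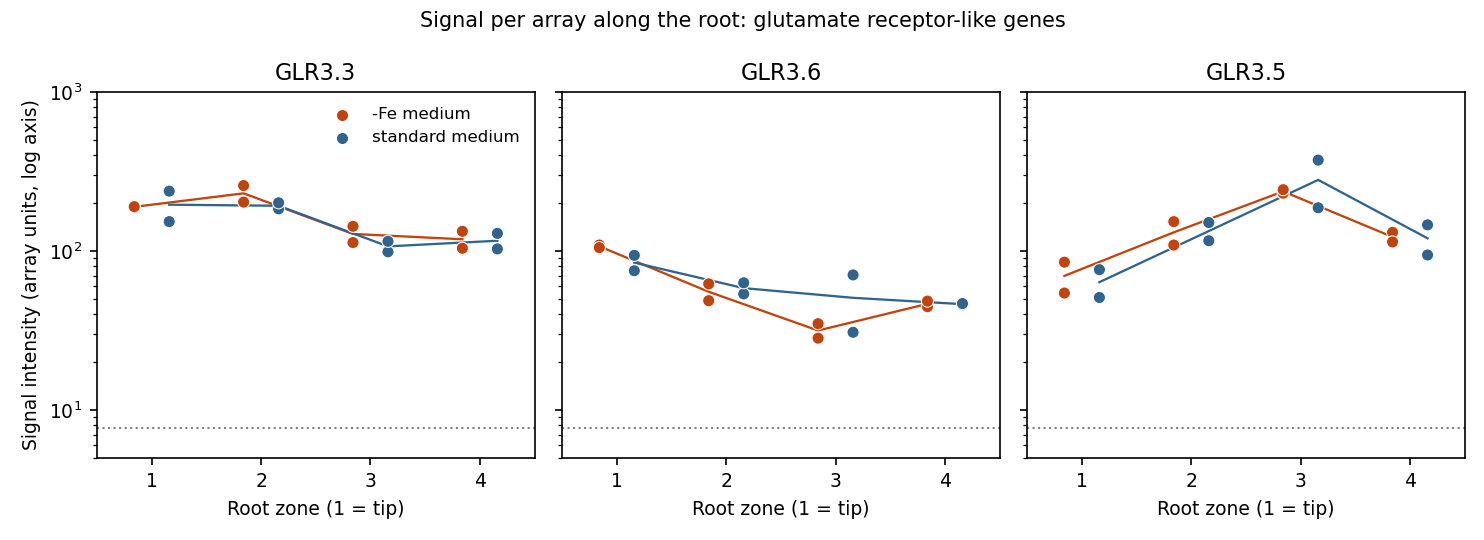
Signal intensity (array units, log axis) of GLR3.3, GLR3.6 and GLR3.5 in the 4 root zones. Points are single arrays (2 per group), lines join the group means, -Fe medium is left of standard medium, and the dotted line is the offset of 7.73 units. GLR3.3 steps down after zone 2, GLR3.6 is highest in zone 1 and GLR3.5 is highest in zone 3.

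Between neighbouring zones, most of the steps that passed lay between zone 2 and zone 3. From zone 1 to zone 2, 0 of 10 genes passed on either medium, where 30.7% of all probe sets tested passed on -Fe medium and 20.5% on standard medium. At an unadjusted p under 0.05 there were 3 on -Fe medium (CHX20, GLR3.5 and GLR3.6) and 2 on standard medium (CHX20 and GLR3.5). From zone 2 to zone 3, 4 of 10 passed on -Fe medium, with 50.6% of all probe sets, and 4 of 10 on standard medium, with 50.0%. On -Fe medium 3 rose (ZIP9, ZIP6 and CHX16), beside 22.9% of all probe sets, and 1 fell (GLR3.3), beside 27.8%. On standard medium 3 rose (ZIP9, CHX16 and GLR3.5), beside 22.9%, and 1 fell (GLR3.3), beside 27.1%. The median difference of the 10 genes at this step was 0.47 on -Fe medium and 0.92 on standard medium, beside -0.09 and -0.06 over all probe sets. CHX16, NRAMP5 and NRT2.5 entered the tests only through arrays of zones 3 and 4, and so did ZIP6 but for a single zone 1 array. The filter thus favoured a rise of these genes at this step, and the members' median carries no weight of its own. From zone 3 to zone 4, 0 of 10 passed on -Fe medium (15.6% of all probe sets) and 1 of 10 on standard medium (8.58%), namely ZIP6. At an unadjusted p under 0.05 there were 4 on -Fe medium, with ZIP9, ZIP6 and CHX16 upward and GLR3.5 downward. On standard medium there were 5 at an unadjusted p under 0.05. Without zone 3 standard replicate 1 the differences were 3.29 for ZIP6, 3.27 for CHX16, 2.12 for ZIP9 and -1.60 for GLR3.5. Without its replicate 2 they were 1.27 for ZIP6, 0.37 for CHX16, 0.79 for ZIP9 and -0.64 for GLR3.5. The ZIP6 difference was 1.86 without zone 4 standard replicate 1.

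The other 4 genes passed the filter on few arrays and were dim on the rest. CHX20, a cation/H+ exchanger gene known from osmotic control in guard cells, read 36.9 and 26.7 units in zone 1, 8.85 and 8.93 in zone 2, 10.6 and 11.5 in zone 3, with 3.75 and 2.17 in zone 4 on -Fe medium. On standard medium it read 13.9 and 43.3 units, 14.8 and 2.65, 9.78 and 7.93, and 4.41 and 10.5 in zones 1 to 4. On -Fe medium zone 1 was above and zone 4 below all other zones, whereas on standard medium zones 1 and 2 overlapped. The zone test passed on -Fe medium (adjusted p = 0.0193), but not without either zone 1 array or without zone 4 replicate 2 on that medium (adjusted p up to 0.115), and it did not pass on standard medium (adjusted p = 0.115). CHX20 entered the tests only through 2 zone 1 arrays, at 36.9 units on -Fe medium and 43.3 on standard medium, so the filter favoured this pattern and its test carries no weight of its own.

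CHX19, another exchanger gene, ranged from 16.9 to 36.1 units over all 16 arrays. On -Fe medium it read 30.8 and 33.2, 20.7 and 16.9, 32.1 and 25.7, and 36 and 36.1 units in zones 1 to 4. On standard medium the values were 26.4 and 27.4, 17.9 and 23.3, 26.4 and 34.2, and 18.1 and 29.7 units. Its lowest mean was in zone 2 on each medium, and it did not pass the zone test on either (adjusted p = 0.163 on -Fe medium and 0.568 on standard medium).

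NRAMP5 shares its name with a rice gene known for manganese and cadmium uptake. On -Fe medium it read 16.2 and 1.7 units in zone 1, 14.5 and 2.66 in zone 2, 19.6 and 8.57 in zone 3, with 13.9 and 15.3 in zone 4. On standard medium it read 23 and 14.6, 17.9 and 10.4, 44.8 and 31.8, and 16.9 and 7.09 units. The zone 3 arrays on standard medium were the 2 highest of the 16. The zone test did not pass on -Fe medium (adjusted p = 0.607) or on standard medium (adjusted p = 0.16), and with the replicate number as a block over all arrays it passed on standard medium (adjusted p = 0.0436). With that block its step from zone 2 to zone 3 on standard medium passed too (1.08, adjusted p = 0.0342), against adjusted p = 0.105 without it. NRAMP5 entered the tests only through its 2 zone 3 arrays on standard medium, so the filter favoured this pattern.

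NRT2.5, a high-affinity nitrate transporter gene known to rise under long nitrogen starvation, read between 1.63 and 32.2 units. On -Fe medium the values were 9.2 and 14.9, 12.3 and 24, 13.7 and 30.9, and 14.8 and 32.2 units in zones 1 to 4, and on standard medium 5.06 and 19.4, 22.5 and 1.63, 28.6 and 19.6, and 8.92 and 11 units. The -Fe means were 12.1, 18.2, 22.3 and 23.5 units in zones 1 to 4, and the standard means ran from 9.97 units in zone 4 to 24.1 in zone 3, while the replicates of neighbouring zones overlapped on -Fe medium. The adjusted p of the zone test (limma F test) was 0.73 on -Fe medium and 0.428 on standard medium. NRT2.5 entered the tests only through replicate 2 of zone 3 and of zone 4 on -Fe medium. The filter thus favoured higher values in these zones and on this medium.

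**Figure D4:**
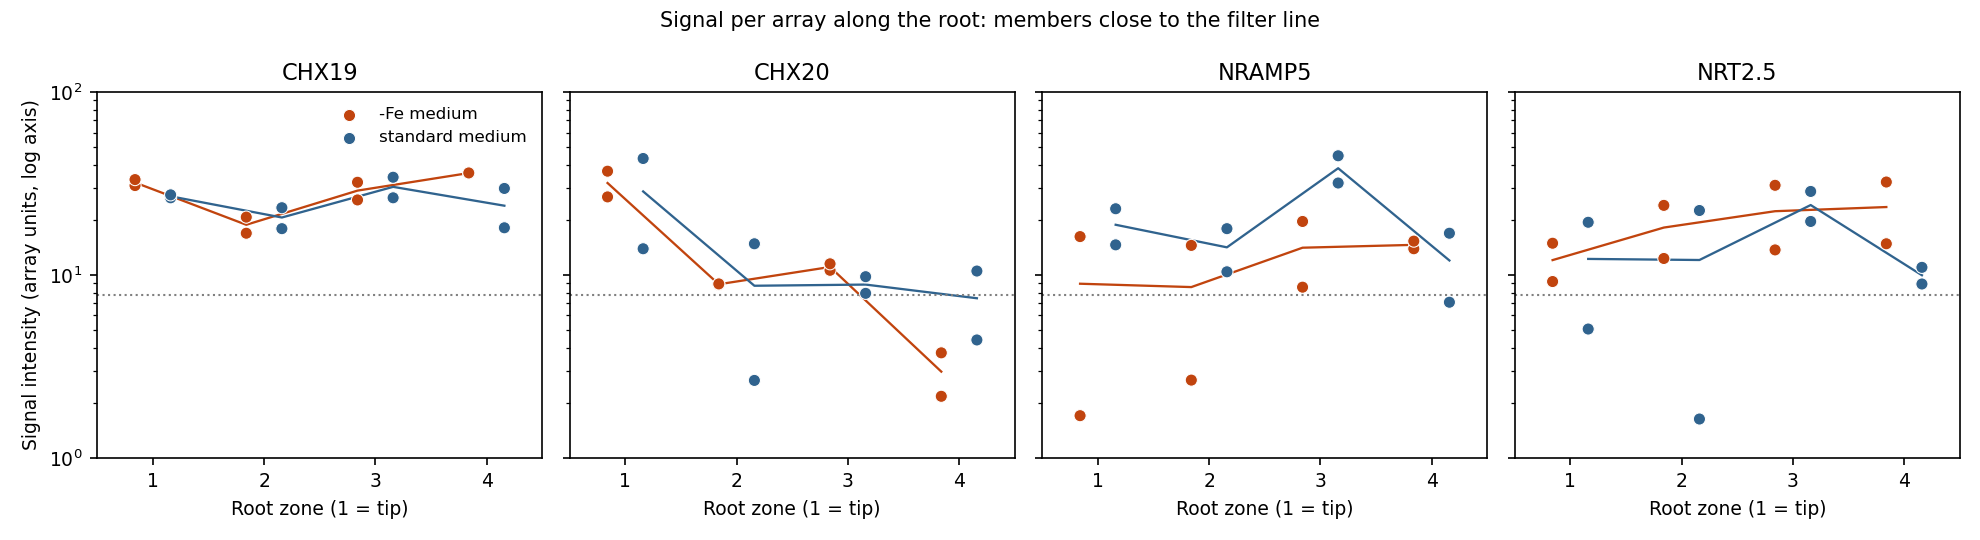
Signal intensity (array units, log axis) of CHX19, CHX20, NRAMP5 and NRT2.5 in the 4 root zones. Points are single arrays (2 per group), lines join the group means, -Fe medium is left of standard medium, and the dotted line is the offset of 7.73 units. CHX20 is highest in zone 1, and the NRAMP5 zone 3 arrays on standard medium, at 44.8 and 31.8 units, lie above those on -Fe medium.

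The question of the series was how iron deficiency acts along the root, and none of the 10 genes tested passed in any comparison of -Fe with standard medium. In limma 0 of 10 passed for the difference averaged over the zones, beside 1.41% of all probe sets, and 0 of 10 had an unadjusted p under 0.05. The same count of 0, also at an unadjusted p under 0.05, was found in zone 1 (0.109% of all probe sets), zone 2 (0.103%), zone 3 (0.291%) and zone 4 (0.927%), and for the iron effect differing between zones (0.121%). With so few probe sets passing in all, a count of 0 among 10 does not set the members apart from the rest. With the replicate number within each zone as a block, a fit added after seeing the data, the averaged difference passed for 444 probe sets in place of 232, and for 0 of the 10 members. The median difference of the 10 genes averaged over zones was 0.07, beside -0.06 over all probe sets, with 6 genes above 0 and 4 below. The lowest adjusted p for any of the 10 was 0.362, for NRAMP5 averaged over zones.

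Among the metal transporter genes, whose families include iron carriers, the differences were as follows. ZIP9 differed by 0.34 ± 0.25 averaged over zones (log2, -Fe minus standard, SE), with a 95% interval of -0.20 to 0.88 and adjusted p = 0.578. ZIP6 differed by 0.14 ± 0.26, with an interval of -0.42 to 0.69 (adjusted p = 0.845). NRAMP5 differed by -0.55 ± 0.26, with an interval of -1.12 to 0.02. The interval of NRAMP5 holds both 0 and a change of -1. Among same-zone arrays of the same number, NRAMP5 was lower on -Fe medium in 7 of 8 pairs, and with the replicate number within each zone as a block its adjusted p was 0.209. Within zone 3, where both -Fe arrays of NRAMP5 lay below both standard arrays, the difference was -1.11 ± 0.53 (limma adjusted p = 0.748). NRAMP5 entered the tests only through its zone 3 arrays on standard medium. The filter thus favoured a lower -Fe value in zone 3 and in the average, so these differences carry no weight of their own.

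For CHX16 the estimate was below 0 in all 4 zones, but its sign in zone 3 depended on a single array. Both -Fe arrays of CHX16 lay below both standard arrays in zones 1, 2 and 4. The log2 difference (-Fe minus standard) was -0.50, -0.76, -0.43 and -0.53 in zones 1 to 4. In zone 3 it was 1.02 without standard replicate 1 and -1.88 without standard replicate 2. Averaged over zones, on all arrays, the difference was -0.56 ± 0.33 (SE, 95% interval -1.28 to 0.17, limma adjusted p = 0.48). The average was sensitive to the zone 3 arrays on standard medium, where replicate 1 read 164 units and replicate 2 read 15.3. Without replicate 2 the average was -0.92 (adjusted p = 0.0227), which made CHX16 the 1 gene of the 10 to pass in any setting of the averaged comparison, and without replicate 1 it was -0.19 (adjusted p = 0.633). In zones 1 and 2 most of its values lay below the offset, and with no offset the average was -1.10 (adjusted p = 0.285).

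Among the channel and remaining genes the averaged differences ran from -0.06 for GLR3.6 to 0.32 for NRT2.5. GLR3.3 differed by 0.12 ± 0.13, GLR3.5 by -0.01 ± 0.18 and GLR3.6 by -0.06 ± 0.16 (log2, -Fe minus standard, SE). Their 95% intervals ran from -0.41 for GLR3.6 to 0.41 for GLR3.3. CHX19 differed by 0.14 ± 0.15 and CHX20 by 0.01 ± 0.24. NRT2.5 differed by 0.32 ± 0.29, with an interval of -0.30 to 0.95. It entered the tests only through 2 arrays, both on -Fe medium, so the filter favoured a higher -Fe value.

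**Figure D5:**
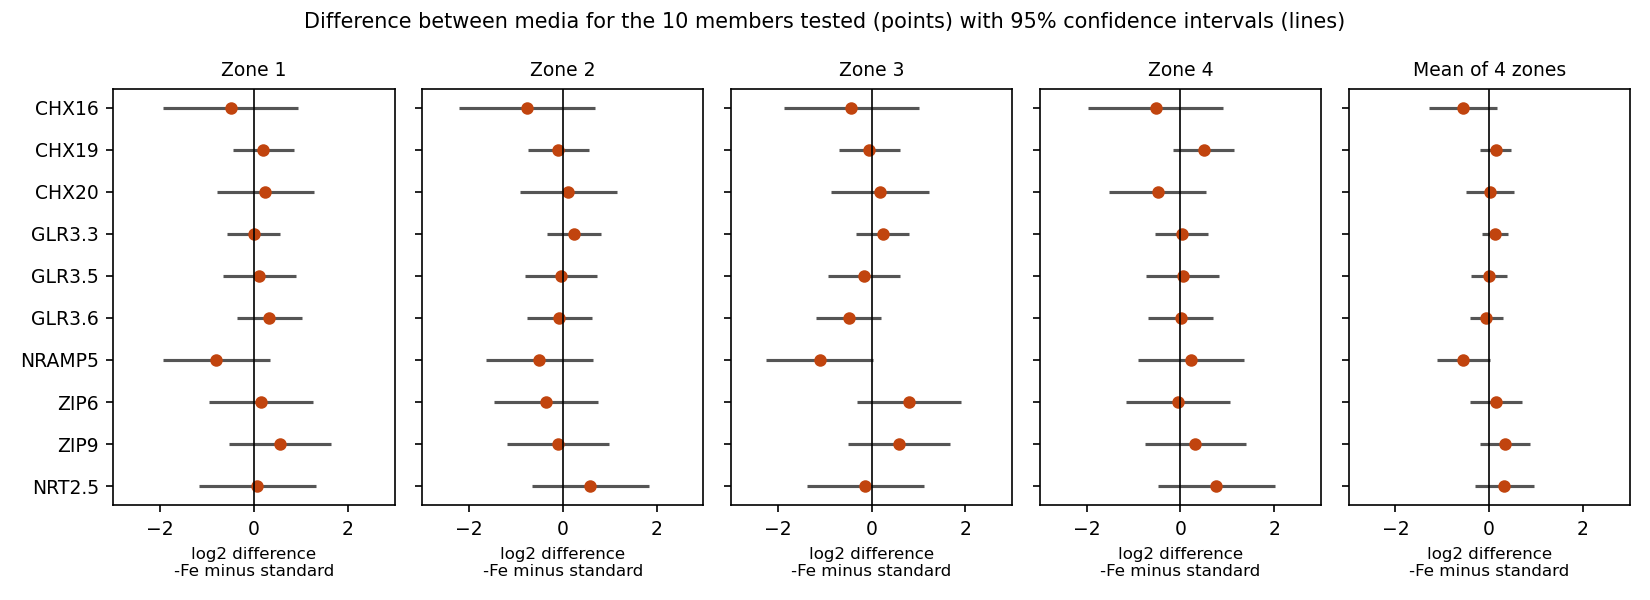
Difference between media (log2, -Fe minus standard) for the 10 genes tested, in each zone and as the mean of the 4 zones. Points are estimates and lines are 95% confidence intervals from limma. All intervals include 0, and those of the single zones are wider than those of the mean.

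Of 17 listed iron and metal transport genes outside the symbol list, 1 had an annotated probe set of its own. This was MTP8, a vacuolar manganese and iron transporter gene. It rose in the averaged comparison, in zone 3 and in zone 4. In zone 4 it read 1088 and 651 units on -Fe medium against 6.9 and 20.6 units on standard medium. This was a difference of 5.38 ± 0.52 (log2, SE, limma adjusted p = 0.000152). On standard medium MTP8 lay above the 40th percentile only in zone 3 replicate 2 (35.1 units against 28.2), so it entered the tests through -Fe arrays. The filter thus favoured a higher -Fe value, and the media tests of MTP8 carry no weight of their own. In zone 4 the largest difference among the 10 transporter genes tested was that of NRT2.5, at 0.76 ± 0.58 (limma adjusted p = 0.697). The filter favoured this difference too, because NRT2.5 entered the tests only through -Fe arrays, replicate 2 of zone 3 and of zone 4. Of 24 other listed ion and water transport genes 2 had an annotated probe set of their own. These were VHA-A2 and VHA-A3, which encode membrane subunits of the vacuolar proton pump. Both rose from zone 1 to zone 2 and from zone 2 to zone 3 on each medium, and neither passed in any comparison of the media.

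The 7 genes that did not pass the filter were CHX15, CHX21, CHX6B, GLR1.4, GLR2.7, GLR2.8 and GLR2.9. Of their 112 values, 69 lay below the offset of 7.73 units and 1 lay above the 40th percentile of its array. CHX21, known for sodium transport at the root endodermis, ranged from 0.352 to 5.38 units and GLR2.9 from 0.4 to 2.92 units, both below the offset on all 16 arrays. CHX15 was below it on 14 arrays (0.986 to 10.4 units) and GLR2.7 on 15 (0.861 to 11 units). CHX6B ranged from 1.42 to 42.2 units, GLR2.8 from 2.7 to 26.8 units and GLR1.4, an amino acid-gated channel gene, from 10.5 to 40.2 units. In a fit without the filter 1 of 98 results of these genes passed, the step of CHX6B from zone 2 to zone 3 on standard medium (1.67 ± 0.52, log2, SE, adjusted p = 0.0236). CHX6B read 42.2 and 13.2 units in that zone 3 and 1.42 and 3.55 units in that zone 2, each below the 40th percentile of its array. These levels do not show that the genes were silent.

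Some members are also neighbours in the genome. GLR2.7, GLR2.8 and GLR2.9, which are known for a part in immune calcium signals, are immediate neighbours in the RefSeq gene order (TAIR10.1), and none of the 3 passed the filter. CHX6B lies next to CHX6A, and GLR3.5 next to a gene named GLR5, neither of which has a probe set among the members. Among the 6 CHX genes 3 passed the filter and among the 7 GLR genes 3, against 4 of the 4 metal and nitrate genes. Over all single-gene probe sets 67.8% passed, and 58.8% of the 17 did.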

How the data were processed

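Total RNA from pooled root pieces was amplified in 2 cycles, labelled with biotin and hybridised, per the labels' protocols. The deposited values are signal intensities on a linear scale, 1 per probe set and array, made with MAS5 per the submitters' processing notes, with version, detection calls and genome build not given in the sources used here. Each array's mean between its 2nd and 98th percentiles was 249.9 units, as a global scaling gives.

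The 64 array controls were left out. The other 22746 intensities were taken as log2(intensity + 7.73), the offset being their 20th percentile, with no further normalization. The filter left 16505 probe sets. Tests used limma 3.58.1 under R 4.3.3 (8 group means over 16 arrays, intensity trend), Benjamini-Hochberg adjusted within each comparison over all probe sets kept, threshold 0.05. The fit was tested on simulated data.

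The platform annotation gave 1 gene for 13513 probe sets and more than 1 for 503, while it did not list 8730. Symbols were updated to RefSeq (TAIR10.1) for 13436, and both symbols gave the same 17 members. Genes named with every array's value were all those that passed the filter. Members and lists were chosen with earlier results of these data known. Same-zone arrays of the same number deviated together across media (correlation 0.18 to 0.37, 4 of 4 over 0.1), so that block was added for the media comparisons. Alternatives were offset, scaling, filter, variance model, array weights, replicate blocks, fits on the arrays compared and omission of each array. The number of arrays limits the precision.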

Additional observations from a re-analysis of the deposited data

How the results depend on the processing

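Counts below are of members past the threshold, of 10 tested. Of 21 results that passed, 11 did so under every alternative run, and none changed direction. From zone 1 to zone 2 on -Fe medium the count of 0 became 1 with a doubled offset, 2 without the intensity trend, 3 with array weights and 1 on the arrays compared alone. From zone 3 to zone 4 on -Fe medium 0 became 2 with array weights, 1 with the replicate block over all arrays and 4 on the arrays compared. On standard medium, zone 1 to zone 2 gave 1 with array weights, in place of 0. Zone 2 to zone 3 gave 3 with median centring, 2 with quantile normalization, 2 with array weights and 1 on the arrays compared, in place of 4, and 5 with either planned replicate block, which added NRAMP5. Without the filter it stayed at 4, with CHX6B in place of GLR3.5. The same step on -Fe medium gave 5 with quantile normalization (GLR3.6 added), 6 with array weights (GLR3.5 and GLR3.6 added) and 5 on the arrays compared (GLR3.5 added), in place of 4. On standard medium, zone 3 to zone 4 gave 0 on the arrays compared, in place of 1. The cause of these changes was not tested, except that fits on the arrays compared use fewer arrays. With 1 array omitted at a time, the counts ran from 0 to 3, 2 to 6 and 0 to 2 for the 3 steps on -Fe medium and from 0 to 1, 0 to 4 and 0 to 4 on standard medium. They ran from 5 to 7 for the zone test on -Fe medium, from 5 to 6 on standard medium and from 0 to 1 for the averaged iron effect, and stayed at 0 for the iron effect in each zone and its interaction. Over all 28 pairs of groups the correlation of same-numbered replicates ran from -0.13 to 0.46, with 15 over 0.1, so the numbers were not taken as pairs between zones. The replicate block over all arrays also raised the standard zone test to 6 (NRAMP5 added) and the zone 3 to zone 4 count on -Fe medium to 1 (ZIP6), and beside these 3 counts changed none. The block within each zone, added after seeing the data, left all counts of the media comparisons at 0. The median shift of all probe sets from zone 1 to zone 2 on -Fe medium was -0.15 (log2), against 0.02 with median centring and -0.01 with quantile normalization, and neither scaling moved the members' count there. Signal close to background limits 7 members outright and CHX20, NRAMP5 and NRT2.5 in most groups.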

Other observations

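A further 12 single-gene probe sets fit the symbol list only by a synonym, a group formed after the data were seen. They were 11 NPF genes, of the nitrate and peptide transporter family, and GLR1.2, and 8 of them, all NPF, passed the filter. Of these 8, 7 differed between zones on -Fe medium and 6 on standard medium, beside 77.4% and 73.7% of all probe sets. NPF2.11, which encodes the glucosinolate transporter GTR2, rose from zone 2 to zone 3 by 4.39 ± 0.61 on -Fe medium (log2, SE, limma adjusted p = 9.73e-05) and by 3.29 ± 0.61 on standard medium (adjusted p = 0.000815). It read 432 and 300 units in zone 3 on -Fe medium and 390 and 115 on standard medium, so its zone 3 replicates on standard medium stood apart in the same direction as those of ZIP6, ZIP9 and CHX16. NPF2.10 (GTR1) was highest in zone 3, at 1327 and 1466 units on -Fe medium and 1262 and 1485 on standard medium.

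NPF6.4 had its highest mean in zone 2, at 107 and 187 units on -Fe medium and 131 and 127 on standard medium. It rose from zone 1 to zone 2 by 2.93 ± 0.65 on -Fe medium (limma adjusted p = 0.00703). On standard medium this rise was 2.65 ± 0.65 (adjusted p = 0.0171). In zone 1 NPF6.4 read 27.3 and 3.32 units on -Fe medium and 6.45 and 25.8 on standard medium. Each of these values lay below the level that the filter set for its array. NPF6.4 therefore entered the tests only through arrays of the zones above zone 1. The filter thus favoured its rise from zone 1 to zone 2, and the test of this step carries no weight of its own. NPF6.2 rose over the same step by 2.58 ± 0.37 on -Fe medium (adjusted p = 0.00141) and 1.84 ± 0.37 on standard medium (adjusted p = 0.00749). None of the 8 passed in any comparison of the media. One probe set stood for GLR2.2 and GLR2.3 together and read from 0.38 to 2.29 units over the 16 arrays.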
